A study of Mus musculus with 26 samples.

Results

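The comparison described here is between 5 HCmel3 mouse melanomas that had grown back after adoptive T cell transfer (relapse replicates 1 to 5) and 5 untreated HCmel3 melanomas (ctrl replicates 1 to 5). These 10 samples were taken by title from the 26 of the series, and they are all the samples with these titles. HCmel3 is a transplantable melanoma, known to derive from mice that carry an Hgf transgene and a mutated Cdk4, and the mice of both groups were C57BL6. Tumours were cut out of the skin and snap-frozen, and per sample 100 ng of RNA was amplified and hybridised to an Illumina MouseWG-6 v2.0 array. The ctrl tumours are labelled as not treated. The relapse tumours carry the treatment label ACT_relapse, and the transfer consisted of a single dose of cyclophosphamide, CD8+ pmel-1 T cells given into a vein, a vaccine adenovirus that expresses gp100, and CpG with polyI:C. The sources used here give neither the day of excision nor the sex and age of the mice, and they do not say that the samples of a group came from separate animals. The p-values therefore weigh differences against the spread of these samples only, some of which may be technical. The titles mark these samples as analysed again, without saying what was repeated. The question is how tumours that returned after a T cell attack on a melanocyte antigen differ from untreated ones.

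Melanocytes make pigment in melanosomes, with tyrosinase and its relatives as enzymes and with Pmel as the protein of the inner fibrils. Pmel is the gp100 antigen that pmel-1 T cells recognise. MITF and SOX10 are the transcription factors that keep pigment cells in this state, and melanoma cells are known to be able to leave it for a state nearer to the neural crest, marked by genes such as Axl and Ngfr. T cells read peptides on MHC molecules, and interferon-gamma is known to raise both the MHC genes and the enzymes that prepare the peptides.

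Levels below are normalized log2 signals of the brightest detected probe of a gene, and differences are relapse minus ctrl on that log2 scale, with the standard error (SE) of the limma fit. A gene is said to have risen or fallen where its p-value, adjusted over all 8849 tested genes with the Benjamini-Hochberg method, was under 0.05. Of these genes 2891 were called, 32.7% of those tested: 1197 rose, which is 13.5%, and 1694 fell, which is 19.1%. Changes of at least 2-fold were called in 806 genes that rose and 945 that fell, and changes of at least 8-fold in 69 genes in each direction. In 678 genes, 7.66% of those tested, all 5 relapse values lay above all 5 ctrl values, and in 1012, or 11.4%, all lay below.

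The number of probes detected per array was higher in relapse than in ctrl, 17616 ± 952 (SD, n = 5; 15998 to 18331) against 16019 ± 1048 (SD, n = 5; 14550 to 17039), a difference of 1597 (two-sided exact permutation p = 0.0397). Within slide 1 it was 1459.7 (exact p = 0.3, where the smallest possible is 0.1), and within slide 2 it was 1803 (exact p = 0.333, the smallest possible). Relapse replicate 3 stood apart: its mean correlation with the other relapse tumours was 0.874, against 0.922 to 0.935 for those 4 and 0.945 to 0.955 in ctrl. Values without it are given below beside several results, and 17.9% of genes rose and 25.1% fell in the fit without it. The arrays lay on 2 slides, with replicates 1 to 3 of both groups on slide 1 and replicates 4 and 5 on slide 2. On slide 1 alone 3.96% of genes rose and 3.18% fell, and on slide 2 alone 12.6% rose and 16.1% fell. On each slide the ctrl arrays held the first positions and the relapse arrays the next, so position and group cannot be told apart. The difference between the slides in the relapse effect, a test added after the data were seen, was called for 0 of 8849 genes with limma (724 at an unadjusted p under 0.05). Centring each array on its median in place of quantile normalization moved the median difference of all genes from -0.09 to 0.28, and changes are relative to that: 75.1% of the called genes rose under centring, against 41.4%.

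**Figure D1:**
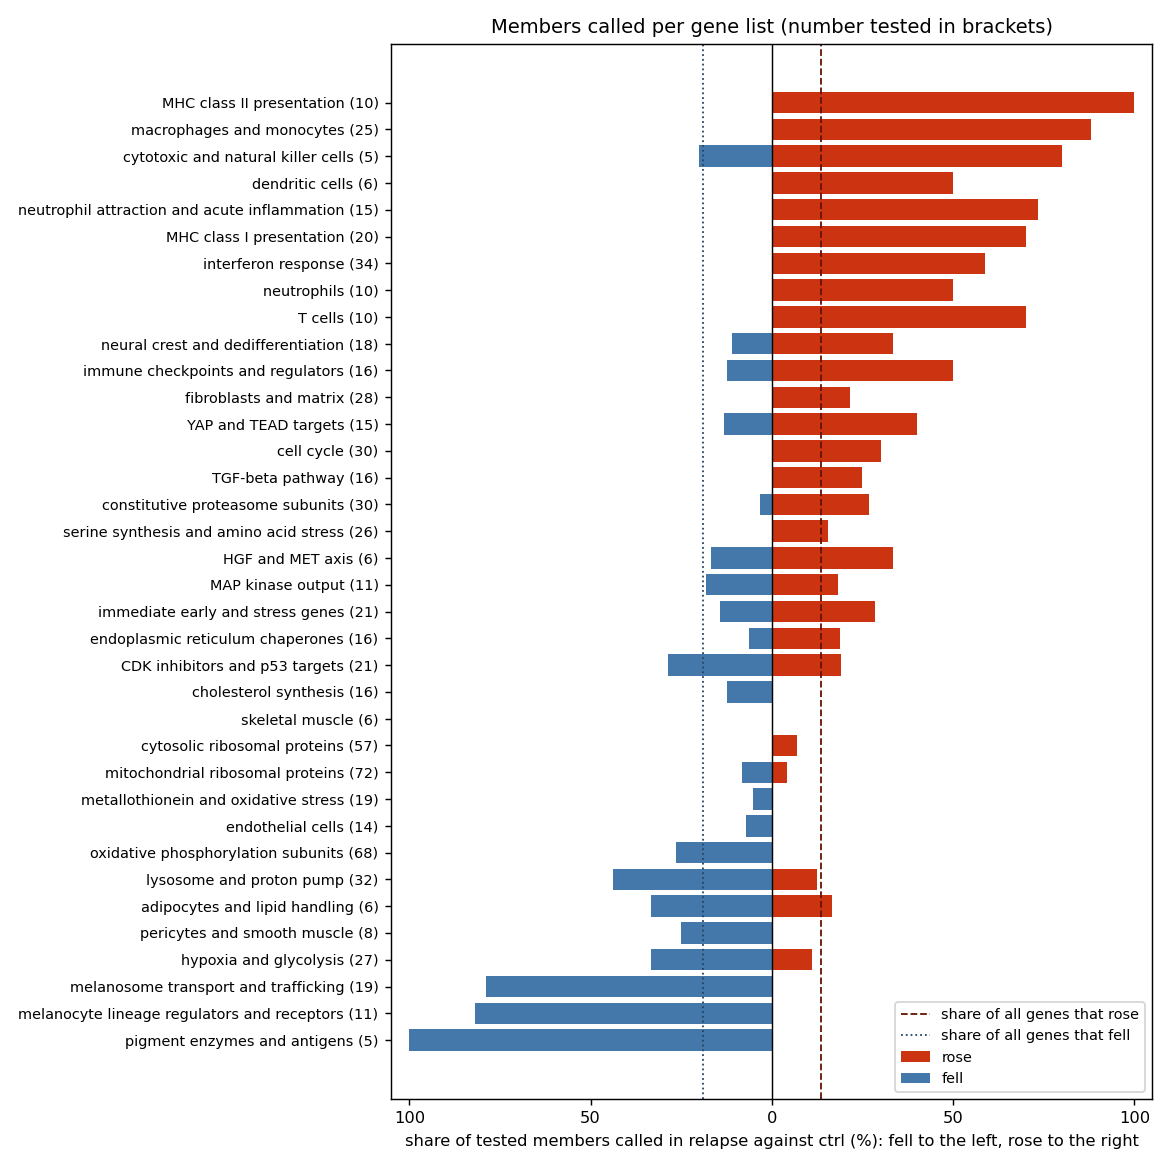
Share of the tested members of each gene list that rose (right, red) or fell (left, blue) in 5 relapse against 5 ctrl tumours, in percent, with the number of tested members in brackets; the dashed and dotted lines mark the shares over all 8849 genes, 13.5% and 19.1%. Pigment cell lists lie at the bottom with falls only, and antigen presentation and leukocyte lists at the top. Only lists with at least 5 tested members are drawn.

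The pigment cell programme was lower in every relapsed tumour, to a very different extent from tumour to tumour. All 5 genes of the list of pigment enzymes and antigens fell, with no overlap between the groups. Pmel, the target of the transferred T cells, read 15.14, 15.24, 15.24, 15.11 and 14.995 in ctrl replicates 1 to 5 and 12.86, 6.27, 13.95, 9.84 and 9.42 in relapse replicates 1 to 5. The relapsed tumours spread from replicate 3, nearest to the ctrl level, down to replicate 2. The ctrl values of Pmel, Tyrp1 and Dct lie close to the top of the scale, where Rplp1, a very bright ribosomal protein gene, read 15.36 on all 5 relapse arrays, so the spread among ctrl tumours and the size of these falls may be understated. The difference was -4.68 ± 1.11 (adjusted p = 0.008; -4.18 on slide 1 and -5.42 on slide 2). Mlana, which encodes the melanosomal antigen MART-1, read 14.85, 14.63, 13.92, 14.73 and 13.77 in ctrl and 10.19, 7.26, 13.25, 8.32 and 8.32 in relapse. It fell by 4.92 ± 0.89 (SE; adjusted p = 0.00204), again least in replicate 3. Because whole pieces of tumour were measured, fewer cells of a type and less RNA per cell cannot be told apart, here and below.

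Among the enzymes of melanin synthesis, Tyr, the rate-limiting enzyme, was detected on all 5 ctrl arrays, at 9.54, 8.16, 6.27, 10.72 and 9.24, and on 0 of the relapse arrays. Its level was at least 13.05-fold lower in relapse (adjusted p = 0.000652), a bound that sets each undetected array to the lowest normalized signal it detected or to the probe's own value where that was higher. Relapse replicate 3, which kept the most Pmel of the 5, was no exception for Tyr. Tyrp1, which stabilises tyrosinase and acts after it, read 14.77, 14.87, 15.02, 14.76 and 15.13 in ctrl and 14.14, 8.96, 14.61, 11.03 and 10.13 in relapse. Its difference was -3.13 ± 0.92 (adjusted p = 0.0214; -2.32 on slide 1 and -4.36 on slide 2). Dct, the dopachrome tautomerase, read 15.13, 14.72, 15.10, 15.25 and 15.29 in ctrl and 14.53, 10.84, 14.63, 12.88 and 11.997 in relapse, a difference of -2.12 ± 0.62 (adjusted p = 0.0205). For Tyrp1 and Dct, replicates 1 and 3 lay just below the lowest ctrl tumour, and replicates 2, 4 and 5 far below it. Without relapse replicate 5 both missed the threshold, at -2.72 (adjusted p = 0.055) and -1.88 (adjusted p = 0.0532). The pigment list had 5 of 5 members called without relapse replicate 3 and 3 of 5 without relapse replicate 5. With every probe of the array kept, a setting in which 7.95% of 19052 genes fell and 5.69% rose, 3 of the 5 were called.

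The promoters of the pigment enzymes are shown because these genes fell together and MITF is known to bind a sequence there, the M-box, whose core TCATGTG is in capitals in either orientation. Each is read from RefSeq (GRCm38.p6), from 250 bases before to 50 bases after the annotated gene start, 5′ to 3′ on the gene's strand. Tyr lies at chr7:87493463-87493762 on the minus strand, Tyrp1 at chr4:80833963-80834262 on the plus strand and Dct at chr14:118052197-118052496 on the minus strand.
Tyr: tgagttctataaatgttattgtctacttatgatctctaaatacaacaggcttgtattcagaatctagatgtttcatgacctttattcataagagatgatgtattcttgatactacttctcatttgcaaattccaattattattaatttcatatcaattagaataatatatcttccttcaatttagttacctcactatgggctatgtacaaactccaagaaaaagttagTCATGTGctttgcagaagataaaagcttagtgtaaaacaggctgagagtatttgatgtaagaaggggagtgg
Tyrp1: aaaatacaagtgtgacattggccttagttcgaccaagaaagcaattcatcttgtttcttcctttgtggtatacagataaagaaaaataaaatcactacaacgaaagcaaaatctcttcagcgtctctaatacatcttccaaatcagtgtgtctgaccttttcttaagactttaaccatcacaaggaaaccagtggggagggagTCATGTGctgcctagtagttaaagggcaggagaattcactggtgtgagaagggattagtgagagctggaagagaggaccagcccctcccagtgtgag
Dct: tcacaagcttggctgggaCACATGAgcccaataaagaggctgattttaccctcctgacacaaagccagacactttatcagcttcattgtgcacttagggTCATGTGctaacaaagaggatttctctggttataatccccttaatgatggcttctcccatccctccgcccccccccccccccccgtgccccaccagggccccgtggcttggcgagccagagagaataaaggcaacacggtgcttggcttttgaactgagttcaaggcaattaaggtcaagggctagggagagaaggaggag
The core occurred in 3 of 3 promoters of the list that the table holds, starting 22 bases before the start in Tyr, 47 before it in Tyrp1, and 232 and 151 before it in Dct. Over all 32851 promoters of the same length, 3.77% held it on either strand, and 2.02% of the 9306 promoters of tested genes did. Among 18 promoters of the tested melanosome genes 2 held it (Trpm1 and Hps1), and among 16 of the lineage genes 1 did (Mc1r). A match is a description of these letters and says nothing of binding.

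Genes for building and moving melanosomes fell too, 15 of 19 tested members (21 with a probe), and 0 rose. Oca2, a melanosomal chloride channel, read 13.14, 12.79, 12.78, 12.97 and 12.70 in ctrl and 7.003, 4.66, 10.59, 5.92 and 5.24 in relapse, where 4 of 5 arrays detected it. It fell by 6.19 ± 0.87 (SE; adjusted p = 0.000527), the largest called fall among genes whose groups did not overlap. Trpm1, a cation channel of melanocytes, read 12.11, 11.53, 11.29, 11.91 and 12.12 in ctrl and 5.48, 4.52, 9.70, 4.74 and 4.61 in relapse, where 2 of 5 arrays detected it (-5.98 ± 0.82, adjusted p = 0.00048; its other probes differed by -2.86 and -2.93). Slc45a2, a transporter that sets melanosomal pH, read 13.53, 13.29, 12.95, 13.11 and 13.01 in ctrl and 9.05, 5.05, 11.36, 6.16 and 5.22 in relapse (-5.81 ± 1.01, adjusted p = 0.00169). In all of these, relapse replicate 3 was the highest of the relapsed tumours and replicate 1 was next. Gpr143, the receptor mutated in ocular albinism, differed by -5.08 ± 0.77 (adjusted p = 0.000833) and was detected on 2 of 5 relapse arrays. Rab38, a GTPase that carries tyrosinase to melanosomes, differed by -4.87 ± 0.77 (adjusted p = 0.00103). Gpnmb, a glycoprotein of melanosomes that macrophages also make, differed by -1.14 ± 0.38 (adjusted p = 0.0353) at its brightest probe, which lay near the top of the scale, and by -0.78, -3.63 and -3.28 at its other probes. At the brightest probe it lost its call in 8 of the 10 fits that left out 1 tumour, with an adjusted p of up to 0.0887.

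Of the lineage regulators and receptors, 9 of 11 tested genes fell and 0 rose. Mitf read 10.82, 11.03, 11.34, 9.64 and 9.19 in ctrl and 8.29, 5.45, 10.02, 5.33 and 5.89 in relapse, and fell by 3.41 ± 0.84 (SE; adjusted p = 0.00946). The groups overlapped only through replicate 3, whose Mitf was above 2 of the ctrl tumours. Sox10 read 12.95, 13.15, 12.47, 12.20 and 12.03 in ctrl and 12.48, 9.73, 11.48, 8.26 and 8.29 in relapse, a difference of -2.51 ± 0.72 (adjusted p = 0.02). In the case of Sox10 it was replicate 1 that lay within the ctrl range. Kit, the growth factor receptor of melanocytes, behaved differently from the pigment genes: it was low in every relapsed tumour, replicate 3 included, at 6.36, 7.44, 6.998, 7.32 and 6.78 against 9.73, 10.36, 9.86, 9.25 and 9.64, and differed by -2.79 ± 0.26 (adjusted p = 5.92e-05; -3.06 on slide 1 and -2.40 on slide 2). Mc1r, the receptor for melanocyte-stimulating hormone, read 10.63, 10.55, 10.49, 10.22 and 10.32 in ctrl and 9.46, 8.71, 10.51, 5.62 and 6.87 in relapse (-2.21 ± 0.73, adjusted p = 0.0366). Its call was lost in 8 of 10 fits without 1 tumour (adjusted p up to 0.0901), and in relapse replicate 3 it was at the ctrl level.

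**Figure D2:**
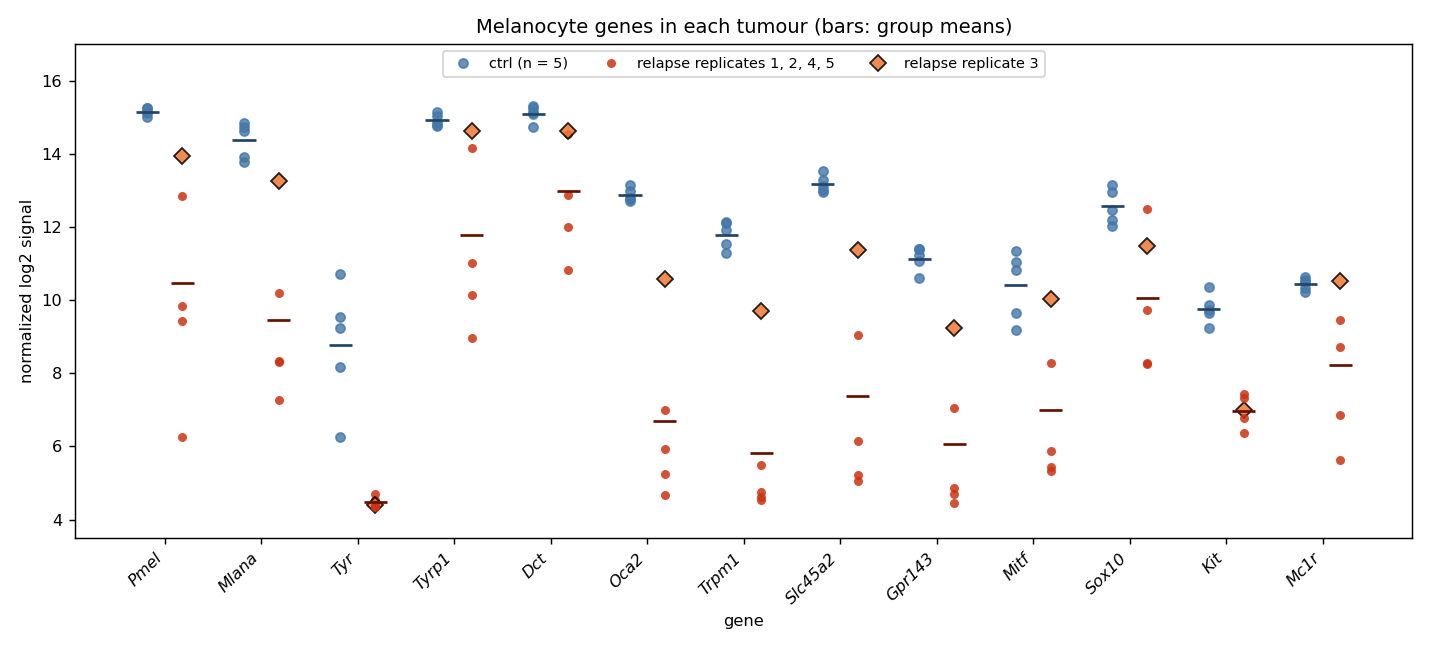
Normalized log2 signal (y axis) of 13 pigment cell genes (x axis) in each tumour; blue points are 5 ctrl tumours, red points relapse replicates 1, 2, 4 and 5, orange diamonds relapse replicate 3, and bars the group means. Replicate 3 is the highest relapse value for most genes, such as Pmel at 13.95, but is as low as the others for Tyr and Kit.

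Genes of the neural crest and of dedifferentiated melanoma cells rose in part, with 6 of 18 tested members called as risen and 2 as fallen. These are 33.3% and 11.1%, against 13.5% and 19.1% over all genes. Axl, a receptor tyrosine kinase, read 11.18, 10.83, 9.69, 9.49 and 11.13 in ctrl and 14.03, 14.09, 12.07, 13.86 and 13.98 in relapse, without overlap, and differed by 3.14 ± 0.45 (adjusted p = 0.00063; 2.83 on slide 1 and 3.61 on slide 2). Nt5e, the ectoenzyme CD73 that makes adenosine, read 6.56, 6.60, 5.71, 6.72 and 5.57 in ctrl and 8.96, 11.38, 7.01, 10.86 and 10.82 in relapse (3.57 ± 0.70, adjusted p = 0.00317), and 4 of 5 ctrl arrays detected it. For both, replicate 3 was the lowest of the relapsed tumours. Tnc, the matrix protein tenascin C, was at 12.30, 12.68, 9.15, 13.36 and 12.44 in relapse against 10.93, 9.81, 8.80, 9.84 and 9.28, with replicate 3 inside the ctrl range (2.25 ± 0.68, adjusted p = 0.0238, lost in 5 of 10 fits without 1 tumour with an adjusted p of up to 0.0602). Plaur, the urokinase receptor, differed by 2.58 ± 0.53 (adjusted p = 0.00388). Ngfr, the nerve growth factor receptor p75 and a marker of this state, was not called (1.32 ± 0.65, adjusted p = 0.133). It read 9.15, 5.77, 6.52, 5.27 and 5.11 in relapse and 4.76, 5.50, 4.496, 4.72 and 5.73 in ctrl, so that replicate 1 alone was high. S100b, a marker of melanocytes and glia, fell by 3.18 ± 0.65 (SE; adjusted p = 0.00375; detected on 3 of 5 relapse arrays), and so did Sox9, by 0.93 ± 0.27 (SE; adjusted p = 0.021), although its other probe differed by -0.13. Without relapse replicate 3, 9 members rose and 2 fell, and without ctrl replicate 5, 4 rose. Without ctrl replicate 3 or relapse replicate 1, 1 member fell.

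Ankrd1, a target of the YAP and TEAD factors that answers to tension in the cell, read 6.98, 6.64, 4.36, 7.54 and 4.76 in ctrl, where 3 of 5 arrays detected it, and 12.22, 9.58, 5.37, 12.28 and 12.06 in relapse. Replicates 1, 4 and 5 stood at about 12, replicate 2 lower and replicate 3 among the ctrl values, which gave a difference of 4.25 ± 1.20 (adjusted p = 0.0186), and 5.48 (adjusted p = 0.00016) without replicate 3. Of 15 tested YAP and TEAD targets 6 rose (40%) and 2 fell (13.3%), against 13.5% and 19.1% over all genes. Axl and Nt5e were among the 6, while Ccn2, the classic target CTGF, differed by -0.26 ± 0.34 (adjusted p = 0.578). With 1 tumour left out 3 to 7 of the 15 rose and 1 to 3 fell; 3 rose without any 1 of ctrl replicates 1, 3 and 5 and relapse replicates 2 and 4, and 1 fell without ctrl replicate 1 or relapse replicate 5. Of 16 tested genes of the TGF-beta pathway 4 rose (25%, against 13.5% over all genes) and 0 fell. Tgfbi, an adhesion protein induced by TGF-beta, read 8.35, 8.77, 7.45, 8.499 and 8.37 in ctrl and 12.60, 13.02, 10.99, 13.38 and 13.63 in relapse, all above every ctrl tumour (4.44 ± 0.44, adjusted p = 8.38e-05; 4.01 on slide 1 and 5.07 on slide 2). Ltbp1, which tethers latent TGF-beta to the matrix, read 9.76, 11.22, 7.64, 10.26 and 10.70 in relapse against 6.20, 6.43, 6.93, 5.86 and 7.18 (3.40 ± 0.56, adjusted p = 0.00125). The receptor gene Tgfbr2 differed by 1.51 ± 0.51 (adjusted p = 0.0394, lost in 8 of 10 fits without 1 tumour, up to 0.091) and Tgfbr1 by -0.20 ± 0.21 (adjusted p = 0.491).

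The list of fibroblast and matrix genes had 6 of 28 tested members called as risen, or 21.4%, and 13 of 28 without relapse replicate 3. Htra1, a secreted protease, read 7.11, 7.14, 6.13, 6.44 and 6.37 in ctrl and 11.07, 13.33, 6.66, 12.05 and 11.87 in relapse. Replicates 1, 2, 4 and 5 were far above ctrl and replicate 3 was not, and the difference of 4.36 ± 0.95 (adjusted p = 0.0053) became 5.44 (adjusted p = 3.35e-06) without it. Fn1, fibronectin, was also lowest in replicate 3, at 12.83, 13.87, 9.94, 12.51 and 12.78 in relapse against 9.98, 10.38, 7.27, 10.67 and 9.97 (2.73 ± 0.74, adjusted p = 0.0152). Timp1, an inhibitor of matrix proteases, differed by 1.68 ± 0.38 (adjusted p = 0.00663). Sparc, a collagen-binding matrix protein, differed by 0.65 ± 0.28 (adjusted p = 0.0974). The median difference over the 28 genes was 0.998 (2.32 in relapse replicate 2 and -1.07 in replicate 3, each relative to the ctrl mean), and 0.59 on slide 1 and 1.72 on slide 2.

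**Figure D3:**
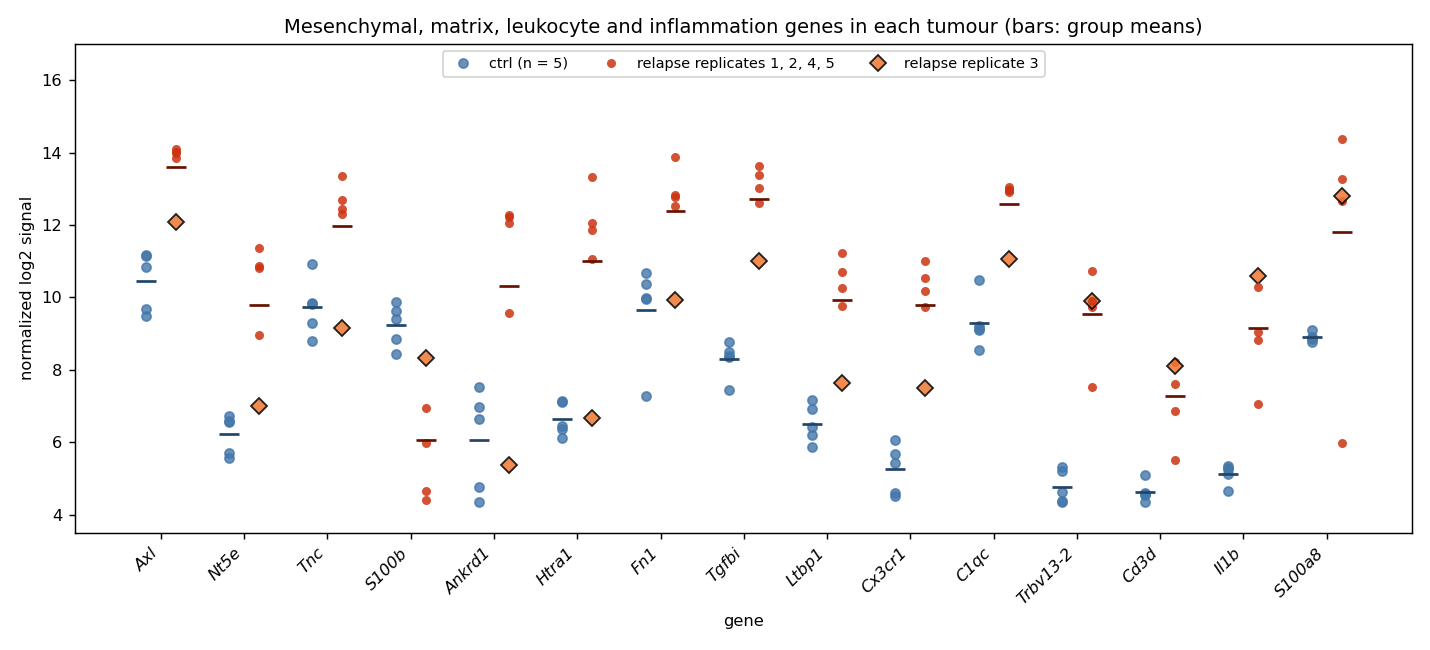
Normalized log2 signal (y axis) of 15 genes of dedifferentiation, matrix, leukocytes and inflammation (x axis) in each tumour; blue points are 5 ctrl tumours, red points relapse replicates 1, 2, 4 and 5, orange diamonds relapse replicate 3, and bars the group means. Replicate 3 lies among or near the ctrl tumours for Tnc, Ankrd1, Htra1 and Fn1 (9.94 against a ctrl range of 7.27 to 10.67), but not for Trbv13-2, Cd3d or Il1b.

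MHC class II genes gave the 3 largest called rises of all genes, those of Cd74, H2-Eb1 and H2-Ab1, and were high in every relapsed tumour. All 10 tested members (13 with a probe) rose, and in 9 of them the groups did not overlap. Cd74, the invariant chain that guides class II molecules, read 7.79, 8.66, 6.99, 7.91 and 8.19 in ctrl and 13.95, 14.28, 12.07, 14.25 and 12.87 in relapse replicates 1 to 5. The lowest relapsed tumour was more than 3 log2 units above the highest ctrl tumour, and the difference was 5.58 ± 0.44 (adjusted p = 3.03e-05; 5.62 on slide 1 and 5.51 on slide 2). H2-Eb1, a class II beta chain, read 6.55, 7.43, 6.76, 7.39 and 8.37 in ctrl and 12.98, 13.23, 11.81, 13.31 and 11.79 in relapse (5.33 ± 0.41, adjusted p = 3.03e-05). H2-Aa, an alpha chain, read 7.77, 7.63, 6.33, 7.66 and 7.93 in ctrl and 12.68, 13.27, 11.67, 12.49 and 11.48 in relapse (4.85 ± 0.38, adjusted p = 3.03e-05). H2-Ab1, the beta chain that pairs with it, differed by 5.18 ± 0.42 (adjusted p = 3.08e-05), and H2-DMa, which helps to load the peptide, by 4.51 ± 0.42 (adjusted p = 5.92e-05). Replicate 3 was the lowest or near the lowest relapse value for these genes, and still well above ctrl. Class II genes are known to be expressed by macrophages, dendritic cells and B cells and, under interferon-gamma, by melanoma cells. Markers of macrophages rose in the same tumours, as described below, and their part in the class II rise was not tested.

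The promoters of a class II alpha and a class II beta chain are shown because these genes rose together and class II promoters are known to share a conserved Y box, in which the core CTGATTGG (in capitals) is bound by the factor NF-Y. Both are read from RefSeq (GRCm38.p6) over the same window, H2-Aa at chr17:34287774-34288073 on the minus strand and H2-Eb1 at chr17:34305617-34305916 on the plus strand.
H2-Aa: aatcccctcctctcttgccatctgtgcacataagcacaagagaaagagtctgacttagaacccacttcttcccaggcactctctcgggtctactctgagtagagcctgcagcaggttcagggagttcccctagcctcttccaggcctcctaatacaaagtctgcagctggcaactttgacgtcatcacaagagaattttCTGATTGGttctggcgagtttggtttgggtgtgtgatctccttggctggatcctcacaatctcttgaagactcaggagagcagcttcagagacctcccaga
H2-Eb1: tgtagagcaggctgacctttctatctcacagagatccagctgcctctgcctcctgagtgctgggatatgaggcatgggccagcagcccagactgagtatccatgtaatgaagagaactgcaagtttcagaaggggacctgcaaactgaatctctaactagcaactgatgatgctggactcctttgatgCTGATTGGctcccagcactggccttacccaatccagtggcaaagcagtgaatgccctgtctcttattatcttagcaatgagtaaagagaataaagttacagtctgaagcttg
The core began 51 bases before the start in H2-Aa and 62 before it in H2-Eb1. With both strands searched, it was found in 2 of 8 promoters of the tested class II list, which cover 7 genes. It was found in 4.10% of all 32851 promoters and in 5.47% of the 9306 promoters of tested genes.

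MHC class I presentation rose as well, with 14 of 20 tested members called and 0 fallen, but the size varied between tumours and slides. Psmb8, the LMP7 subunit of the immunoproteasome that cuts antigens, read 5.71, 7.66, 6.91, 6.89 and 9.07 in ctrl and 12.07, 11.69, 13.13, 10.53 and 9.80 in relapse (4.196 ± 0.67, adjusted p = 0.00105; 5.54 on slide 1 and 2.18 on slide 2). Psmb9, its LMP2 subunit, read 7.03, 7.59, 7.87, 7.22 and 9.88 in ctrl and 11.61, 10.66, 12.63, 9.62 and 8.81 in relapse (2.75 ± 0.71, adjusted p = 0.0118; 4.14 on slide 1 and 0.66 on slide 2). Relapse replicates 1 to 3 were high for both, replicates 4 and 5 lower, and ctrl replicate 5 was the highest untreated tumour. B2m, the light chain of class I, rose evenly, at 14.95, 14.995, 14.72, 14.80 and 14.73 against 13.34, 14.14, 12.99, 13.19 and 13.45 (1.42 ± 0.22, adjusted p = 0.000972; 1.40 on slide 1 and 1.45 on slide 2). H2-M3, a class Ib molecule, differed by 2.78 ± 0.36 (adjusted p = 0.000341). H2-K1, a classical heavy chain, read 9.92, 9.84, 10.07, 8.52 and 9.28 in ctrl and 12.63, 11.71, 12.95, 10.30 and 9.45 in relapse (1.88 ± 0.61, adjusted p = 0.0331), and lost its call in 5 of 10 fits without 1 tumour (up to 0.0786). H2 genes are close copies of each other, and whether a probe reads more than its own gene was not tested. With 1 tumour left out 8 to 16 members rose, 8 without ctrl replicate 1 and 9 without ctrl replicate 4 or relapse replicate 1, and 12 rose without relapse replicate 3. The list median was 2.45 on slide 1, where 14 members were called, and 0.61 on slide 2, where 3 were.

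Interferon-induced genes followed the same tumours. Of 34 tested members (50 with a probe) 20 rose and 0 fell, 25 rose on slide 1 alone, and 2 rose and 3 fell on slide 2 alone. With 1 tumour left out 16 to 28 rose, and without relapse replicate 3, 16 rose and 1 fell. Relative to the ctrl mean, the median of the list was 2.69, 1.65, 2.96, 1.18 and 0.30 in relapse replicates 1 to 5, and 0.89 in ctrl replicate 5, so the weakest relapsed tumour was below the strongest ctrl tumour. Cxcl9, a chemokine induced by interferon-gamma that draws T cells, read 6.71, 5.73, 6.80, 5.98 and 10.61 in ctrl and 13.003, 12.56, 12.46, 9.21 and 8.42 in relapse (3.96 ± 1.07, adjusted p = 0.0149; 6.26 on slide 1 and 0.52 on slide 2). Its slide effects differed by 5.74 ± 1.44 (SE), with an unadjusted p of 0.00254 and an adjusted p of 0.456 in limma. Cxcl10, its relative, read 5.30, 6.19, 5.92, 4.72 and 6.68 in ctrl, where 3 of 5 arrays detected it, and 10.66, 9.43, 11.48, 9.80 and 7.48 in relapse, without overlap (4.01 ± 0.63, adjusted p = 0.000984). Igtp, an interferon-induced GTPase, differed by 3.19 ± 0.79 (adjusted p = 0.00976; 4.65 on slide 1 and 0.99 on slide 2), and Gbp2, a guanylate-binding protein, by 3.01 ± 0.71 (adjusted p = 0.00791; 4.503 on slide 1 and 0.78 on slide 2). Irgm1, another such GTPase, differed by 0.53 ± 0.20 (adjusted p = 0.0607), and its other probe by 1.96. Relapse replicate 3, which kept the most Pmel, had the highest interferon median of the 5, and replicate 5 the lowest.

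The promoter of Igtp is shown as an example of the interferon-stimulated response element, whose core, GAAA followed by any 2 bases and GAAA again, is in capitals. It lies at chr11:58199306-58199605 on the plus strand in GRCm38.p6 and was read from RefSeq.
Igtp: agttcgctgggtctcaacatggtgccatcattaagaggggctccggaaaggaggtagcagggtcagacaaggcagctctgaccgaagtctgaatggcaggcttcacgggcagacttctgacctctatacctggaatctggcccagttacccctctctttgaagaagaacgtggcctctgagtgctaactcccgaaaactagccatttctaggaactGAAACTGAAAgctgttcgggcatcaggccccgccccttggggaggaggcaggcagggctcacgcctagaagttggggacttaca
The core began 34 bases before the start. It occurred on either strand in 18 of 37 promoters of the tested interferon list (17 of 29 genes) and in 3 of 18 promoters of the class I list. The share was 3.44% over all promoters and 3.08% over the promoters of tested genes. Overlapping matches in a promoter were counted as 1 promoter.

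**Figure D4:**
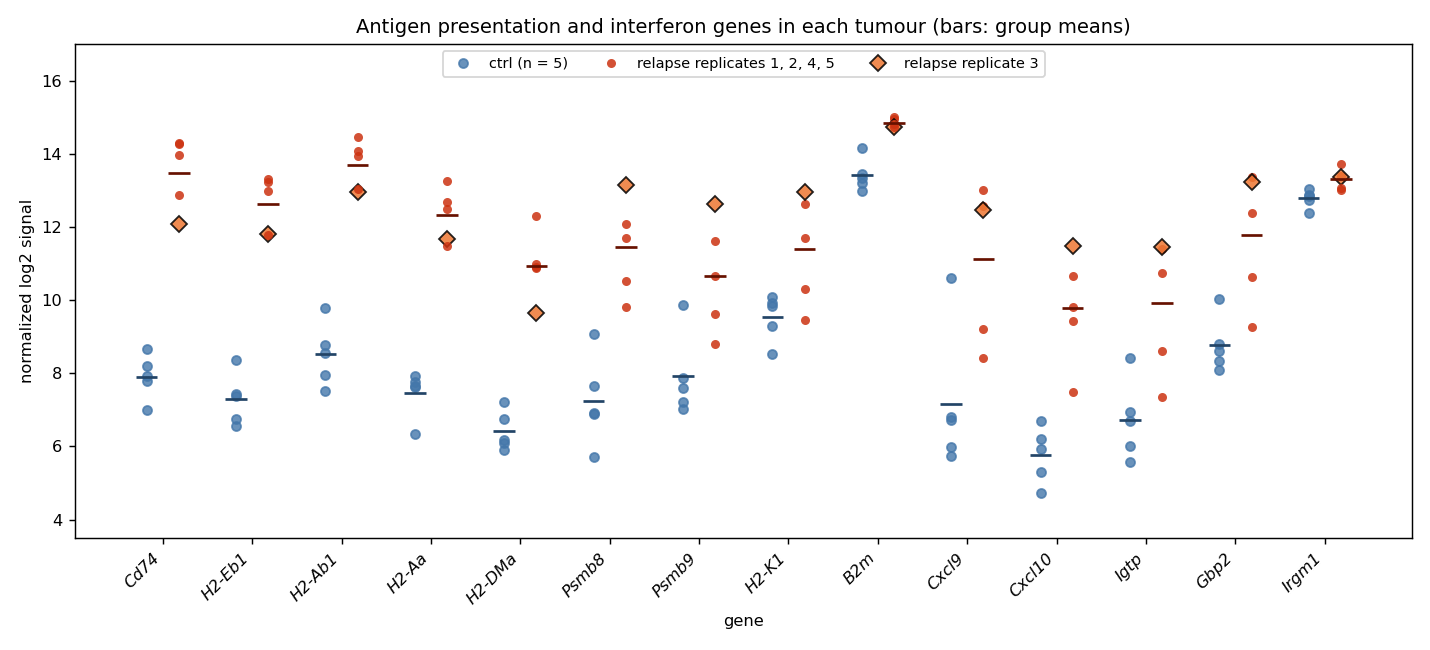
Normalized log2 signal (y axis) of 14 antigen presentation and interferon genes (x axis) in each tumour; blue points are 5 ctrl tumours, red points relapse replicates 1, 2, 4 and 5, orange diamonds relapse replicate 3, and bars the group means. For class II genes (Cd74 to H2-DMa) the groups are far apart, while for Psmb9, Cxcl9, Igtp and Gbp2 the highest ctrl tumour (10.61 for Cxcl9) lies above the lowest relapsed one (8.42).

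Macrophage and monocyte genes rose almost as a block, 22 of 25 tested members (31 with a probe) with 0 fallen, and 25 of 25 without relapse replicate 3. Their summed signal, the log2 of the sum of the normalized linear signals of the list, was 14.8 to 15.7 in ctrl and 15.6 to 17.3 in relapse, and of the 31 only Marco was detected on no array. Cx3cr1, the fractalkine receptor of monocytes, read 4.58, 6.05, 5.67, 4.503 and 5.42 in ctrl, where 1 of 5 arrays detected it, and 10.17, 11.02, 7.49, 9.74 and 10.55 in relapse (4.55 ± 0.57, adjusted p = 0.000273; 4.12 on slide 1 and 5.18 on slide 2). C1qc, a chain of complement C1q made by macrophages, read 8.55, 10.48, 9.10, 9.21 and 9.12 in ctrl and 12.96, 12.90, 11.05, 12.97 and 13.05 in relapse (3.30 ± 0.43, adjusted p = 0.000341). Replicates 1, 2, 4 and 5 were nearly equal and replicate 3 was lower, yet above every ctrl tumour. Fcgr2b, the inhibitory Fc receptor, differed by 3.46 ± 0.57 (adjusted p = 0.00133), and Lyz2, macrophage lysozyme, by 2.43 ± 0.53 (adjusted p = 0.00524), with 0.87 and 0.55 at its other probes. Lyz1, its close copy, differed by 0.69 ± 0.33 (adjusted p = 0.124) at its brightest probe, which lay near the top of the scale, by 2.21 and 1.57 at its other probes, and by 0.96 (adjusted p = 0.0139) at the brightest without relapse replicate 3. Chemokines that draw monocytes were higher, Ccl12 by 4.40 ± 0.50 (adjusted p = 0.000142), Ccl7 by 3.32 ± 0.36 (adjusted p = 0.000121) and Ccl2, detected on 2 of 5 ctrl arrays, by 2.94 ± 0.44 (adjusted p = 0.000806).

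More T cell genes were detected in relapse than in ctrl tumours. Of 28 listed genes 21 had a probe. Of the 21, 9 were detected in ctrl and 17 in relapse, each on at least 1 array. Their summed signal was 10.98 to 11.75 in ctrl and 11.83 to 13.16 in relapse. Of the 10 tested genes 7 rose and 0 fell. Only 2 of the 10 were detected on all 10 arrays, and 0 of these rose. Since the others passed the detection filter mostly through the relapse arrays, the count of 7 is a description. Cd3d, a chain of the T cell receptor complex, was detected on 0 ctrl arrays and read 8.22, 7.60, 8.11, 6.86 and 5.52 in relapse, at least 3.70-fold higher (adjusted p = 0.00136). Cd3g was likewise detected on 0 ctrl arrays and read 8.52, 8.24, 7.47, 6.88 and 5.41 in relapse, at least 3.80-fold higher (adjusted p = 0.00153). Both were lowest in relapse replicate 5. Trbv13-2, a variable segment of the T cell receptor beta chain, read 4.63, 4.36, 4.37, 5.20 and 5.32 in ctrl, where 1 of 5 arrays detected it, and 10.72, 9.73, 9.90, 9.90 and 7.52 in relapse (4.78 ± 0.49, adjusted p = 9.53e-05). Cd8b1, a chain of CD8, was not called (0.29 ± 0.23, adjusted p = 0.351), while its other probe differed by 2.17. Cd4, Cd5, Cd8a and Il2rb were detected on no array, and Ifng on 1 relapse array.

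Of 5 tested genes of cytotoxic and natural killer cells (20 with a probe) 4 rose and 1 fell. Only 2 of the 5, Ccl5 and Prf1, were detected on all 10 arrays, 1 of which rose and 1 fell; Nkg7, Klrd1 and Ctsw were detected on 3 of 5 ctrl arrays and passed the filter through relapse, so this count too is a description. Ccl5, a chemokine made by activated T cells and others, read 7.22, 6.35, 7.53, 6.62 and 8.88 in ctrl and 11.84, 10.62, 11.04, 12.25 and 10.53 in relapse (3.94 ± 0.48, adjusted p = 0.000208). Nkg7, a granule protein of killer cells, read 5.37, 5.17, 4.98, 4.63 and 5.55 in ctrl and 8.48, 7.76, 7.90, 6.58 and 5.34 in relapse, with replicates 1 to 3 high and replicate 5 at the ctrl level (2.07 ± 0.49, adjusted p = 0.00818; 2.87 on slide 1 and 0.87 on slide 2). Klrd1, the CD94 receptor, differed by 2.04 ± 0.38 (adjusted p = 0.00236). Prf1, perforin, fell by 1.26 ± 0.43 (SE; adjusted p = 0.0395), but lost the call in 7 of 10 fits without 1 tumour (up to 0.0837), so that 0 of the list then fell. Gzmb and Gzmc, Klrb1c, Klrc1, Ncr1 and Tbx21 were detected on no array.

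Of 6 tested dendritic cell genes (16 with a probe) 3 rose and 0 fell. Only 3 of the 6 were detected on all 10 arrays, 1 of which rose, so the count is a description. The 3 that rose were Cd40, Cd83 and Ccl17, while Cd209a, Flt3, Naaa and Xcr1 were detected on no array. Cd40, a receptor through which T cells activate dendritic cells, differed by 2.27 ± 0.29 (adjusted p = 0.000273), and by 1.73 and 0.94 at its other probes. Cd83, a mark of mature dendritic cells, differed by 2.56 ± 0.40 (adjusted p = 0.00095) and was detected on 3 of 5 ctrl arrays. Cd86, which gives T cells their second signal and is outside this list, differed by 2.66 ± 0.29 (adjusted p = 0.000121). Ccl17, a chemokine of dendritic cells, was detected on 0 ctrl arrays and read 6.47, 5.59, 7.52, 11.55 and 7.23 in relapse, highest in replicate 4, at least 4.91-fold higher (adjusted p = 0.0156). Of 16 tested checkpoint and regulatory genes 8 rose and 2 fell. Of the 16, 10 were detected on all 10 arrays, of which 4 rose and 2 fell, so this count too is a description. Cd274, the ligand PD-L1, read 7.72, 6.99, 7.09, 7.52 and 7.82 in ctrl and 9.56, 8.46, 10.42, 8.71 and 7.97 in relapse (1.60 ± 0.40, adjusted p = 0.0109; 2.22 on slide 1 and 0.67 on slide 2). Havcr2, the receptor TIM-3, differed by 1.97 ± 0.32 (adjusted p = 0.00109) and was detected on 3 of 5 ctrl arrays. The 2 that fell were Cd200, which inhibits myeloid cells, at -1.41 ± 0.28 (adjusted p = 0.00307), and Tnfrsf9, the receptor 4-1BB, at -1.60 ± 0.39 (adjusted p = 0.00869). Of the B and plasma cell list 1 of 11 genes with a probe was tested, Cd79b, detected on 1 of 5 ctrl arrays, and it rose by 1.40 ± 0.31 (SE; adjusted p = 0.00545). Blk, Cr2, Jchain, Ms4a1, Pax5 and Tnfrsf17 of that list were detected on no array.

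Inflammatory cytokines and chemokines were higher in relapse, while S100a8 and S100a9 separated relapse replicate 1 from the others. Of 15 tested genes of neutrophil attraction and acute inflammation 11 rose and 0 fell. Of the 15, 8 were detected on all 10 arrays and 4 of these rose, so the count is a description. Il1b, the cytokine interleukin 1 beta, read 5.34, 5.28, 4.66, 5.11 and 5.26 in ctrl, where 2 of 5 arrays detected it, and 7.06, 8.83, 10.58, 9.05 and 10.28 in relapse (4.03 ± 0.54, adjusted p = 0.000387; 3.73 on slide 1 and 4.48 on slide 2), and Vcam1, an adhesion molecule, differed by 3.45 ± 0.30 (adjusted p = 4.37e-05). Of 10 tested neutrophil genes (25 with a probe) 5 rose and 0 fell, and 8 rose without relapse replicate 1. Only 4 of the 10 were detected on all 10 arrays, 1 of which rose, so the count is a description. The neutrophil genes Camp, Mmp8, Mpo, Ngp and Stfa3 were detected on no array. S100a8, a calcium-binding protein of neutrophils and of inflamed epidermis, read 9.11, 8.76, 8.84, 8.89 and 8.92 in ctrl and 5.97, 12.65, 12.79, 13.26 and 14.38 in relapse. Replicates 2 to 5 lay far above ctrl and replicate 1 below it, so it was not called (2.91 ± 1.22, adjusted p = 0.084; 1.57 on slide 1 and 4.92 on slide 2). S100a9, its partner, was likewise at 4.65, 10.73, 12.06, 11.76 and 12.78 in relapse and 8.62, 7.83, 8.67, 6.44 and 7.51 in ctrl (2.58 ± 1.25, adjusted p = 0.128). Hdc, which makes histamine, differed by 1.93 ± 0.54 (adjusted p = 0.0181; detected on 4 of 5 ctrl arrays). Fpr2, a receptor for bacterial peptides, read 4.38, 5.43, 4.40, 5.66 and 4.80 in ctrl, where 2 of 5 arrays detected it, and 8.99, 8.42, 9.46, 6.81 and 7.98 in relapse, with replicate 1 among the high values (3.40 ± 0.45, adjusted p = 0.000387). Keratinocyte genes were high in some of the same tumours: their summed signal was 10.24 to 13.03 in ctrl and 11.68, 15.78, 12.47, 15.12 and 16.04 in relapse replicates 1 to 5. Krt14, a keratin of basal epidermis that did not pass the detection filter, was detected on 4 arrays of each group. Of the 24 keratinocyte genes with a probe 3 were tested and 1 rose, Lgals7 (1.99 ± 0.54, adjusted p = 0.016), and Dsc3, Dsg1a and Dsg3 were detected on no array. The part of epidermis in the S100a8 and S100a9 values was not tested.

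A tumour piece can also hold vessels, muscle, blood and fat. Among 14 tested endothelial genes 1 fell and 0 rose: Vwf, von Willebrand factor, at -2.24 ± 0.35 (adjusted p = 0.000914; -2.23 on slide 1 and -2.26 on slide 2), with up to 3 fallen and 2 risen when 1 tumour was left out, while the list median of -0.24 turned to 0.20 with median centring. Their summed signal was 12.8 to 13.5 in ctrl and 12.2 to 13.5 in relapse. Of 8 tested pericyte and smooth muscle genes 2 fell, Kcnj8 (-0.85 ± 0.21, adjusted p = 0.00996) and Abcc9 (-0.83 ± 0.29, adjusted p = 0.0465, lost in 8 of 10 fits without 1 tumour, up to 0.109), both subunits of a potassium channel of pericytes, and both lost the call under median centring. Skeletal muscle genes had 0 of 6 tested members called by limma and a summed signal of 9.40 to 15.2 in ctrl and 9.68 to 13.3 in relapse. Globin and other erythroid genes also had 0 of 3 called, with sums of 13.8 to 15.9 in ctrl and 10.9 to 15.9 in relapse, where replicates 1, 2 and 4 were low, and without relapse replicate 3 all 3 fell. In the list for adipocytes and lipid handling 3 of 6 tested members were called. Dgat2, an enzyme of triglyceride synthesis, was detected on 1 of 5 ctrl arrays and rose by 1.88 ± 0.43 (SE; adjusted p = 0.00677). Pparg, a nuclear receptor of fat cells and macrophages, was lower in every relapsed tumour, at 5.72, 6.15, 6.17, 8.20 and 7.48 against 10.46, 10.45, 9.60, 11.24 and 9.64 (-3.53 ± 0.47, adjusted p = 0.000409; -4.16 on slide 1 and -2.60 on slide 2), and its other probe differed by -1.52. Cyp4b1, a cytochrome P450, was at 4.89, 5.19, 8.61, 4.97 and 4.91 against 8.61, 9.81, 9.69, 8.94 and 9.02 (-3.50 ± 0.63, adjusted p = 0.00209), with 3 of 5 relapse arrays detecting it and replicate 3 the highest of them. Of the 17 genes of this list with a probe, 9 were detected in ctrl and 11 in relapse, each on at least 1 array. Cd36, Cidec, Fabp4, Lipe, Plin1 and Retn were detected on no array.

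Some cell cycle genes were higher, by smaller amounts. Of 30 tested members 9 rose, or 30%, against 13.5% over all genes, and 0 fell. With 1 tumour left out 4 to 14 rose: 4 without relapse replicate 4 or 5, 5 without ctrl replicate 1 or 4, and 14 without ctrl replicate 5. On slide 1 alone 2 rose, and on slide 2 alone 3 rose. With every probe of the array kept, 4 of 35 rose. Top2a, the topoisomerase of dividing cells, read 8.001, 9.18, 8.43, 9.12 and 9.62 in ctrl and 10.59, 10.33, 9.86, 10.97 and 10.94 in relapse (1.67 ± 0.32, adjusted p = 0.003). Its other probe differed by 0.83. Mcm3, a subunit of the replicative helicase, differed by 1.22 ± 0.29 (adjusted p = 0.00755) and Cdk1, the mitotic kinase, by 1.11 ± 0.30 (adjusted p = 0.0158). Ctrl replicate 5 was the highest untreated tumour for Top2a and Cdk1. Relative to the ctrl mean, the list median was 0.72 in ctrl replicate 5. It was 0.67, 0.21, 0.38, 0.61 and 0.94 in relapse replicates 1 to 5, so only relapse replicate 5 lay above ctrl replicate 5. Among 21 tested cell cycle inhibitors and p53 targets 4 rose (19.0%) and 6 fell (28.6%), against 13.5% and 19.1% over all genes. With median centring 5 of them rose and 1 fell. Fas, a death receptor detected on 3 of 5 ctrl arrays, rose by 1.70 ± 0.32 (SE, adjusted p = 0.00238). Rb1, the retinoblastoma protein, fell by 1.38 ± 0.24 (SE, adjusted p = 0.0016). Cdkn2a, which encodes p16 and ARF, differed by -0.08 ± 0.24 (adjusted p = 0.829) at its brightest probe and by 0.09 and 1.84 at its other probes. Of the 6 tested genes of the HGF and MET axis, Spint1, an inhibitor of the proteases that activate HGF, rose by 2.67 ± 0.58 (SE; adjusted p = 0.00504) and Gab1, an adaptor of MET, fell by 0.96 ± 0.20 (SE; adjusted p = 0.00427). Met itself differed by -0.60 ± 0.29 (adjusted p = 0.125), and Hgf was detected on 0 ctrl and 2 relapse arrays. Of 11 tested genes of MAP kinase output 2 rose, Epha2, a receptor detected on 0 ctrl arrays and at least 3.63-fold higher in relapse (adjusted p = 0.00179), and Etv4 (1.11 ± 0.38, adjusted p = 0.0404, lost in 8 of 10 fits without 1 tumour, up to 0.0999). The other 2 called, Phlda1 and Dusp4, fell by 1.70 ± 0.40 and 0.97 ± 0.25 (SE). So 18.2% of the MAP kinase list rose and 18.2% fell, against 13.5% and 19.1% over all genes.

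Metabolic genes moved in several directions. Phgdh, the first enzyme of serine synthesis, read 5.54, 6.60, 7.05, 6.37 and 7.92 in ctrl and 9.90, 9.32, 8.10, 10.93 and 11.01 in relapse, without overlap (3.16 ± 0.56, adjusted p = 0.00189; 2.71 on slide 1 and 3.82 on slide 2). Psat1, the next enzyme, differed by 0.72 ± 0.21 (adjusted p = 0.0199; 0.0545 without relapse replicate 5), and Asns, asparagine synthetase, by 2.09 ± 0.50 (adjusted p = 0.008). Those 3 and Cebpb were the 4 of 26 tested genes of serine synthesis and amino acid stress that rose, or 15.4%, near the share over all genes, and 0 fell. Without relapse replicate 3, 9 rose and 2 fell, and without relapse replicate 5, 3 rose. Of 27 tested hypoxia and glycolysis genes 3 rose (11.1%) and 9 fell (33.3%), against 13.5% and 19.1% over all genes. With median centring 4 fell, and with 1 tumour left out 6 to 13 fell, with 13 without relapse replicate 3. Egln3, an oxygen sensor, rose by 1.98 ± 0.34 (SE; adjusted p = 0.0016), while the glycolytic enzyme gene Pfkl fell by 1.92 ± 0.40 (SE; adjusted p = 0.00425) and Ndrg1 by 1.57 ± 0.41 (SE; adjusted p = 0.0133). Of 68 tested subunits of oxidative phosphorylation 18 fell, or 26.5%, and 0 rose; 16 fell on slide 2 and 0 on slide 1, and with median centring 6 fell and 2 rose. With 1 tumour left out 9 to 24 fell: 9 without relapse replicate 2, 10 or 11 without relapse replicate 1, 4 or 5 or ctrl replicate 4 or 5, and 24 without relapse replicate 3. Cox7a2, a subunit of cytochrome oxidase, read 10.10, 10.59, 10.01, 10.74 and 11.11 in ctrl and 9.31, 8.74, 9.90, 8.18 and 8.44 in relapse (-1.60 ± 0.33, adjusted p = 0.00433), and Atp5b, a subunit of ATP synthase, differed by -0.03 ± 0.17 (adjusted p = 0.917).

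Lysosomal genes split. Of 32 tested members 14 fell, or 43.8%, and 4 rose, and the median was -0.40 (8 fell under median centring). Several falls were in the proton pump that acidifies lysosomes and melanosomes: Atp6v0a1 fell by 1.65 ± 0.37 (SE; adjusted p = 0.00617), Atp6v0b by 1.38 ± 0.30 (SE; adjusted p = 0.0053) and Atp6v1h by 1.33 ± 0.30 (SE; adjusted p = 0.00622). The 4 that rose were Ctsh, a cathepsin, by 1.88 ± 0.31 (SE; adjusted p = 0.00121), Grn, progranulin, by 1.38 ± 0.31 (SE; adjusted p = 0.00611), Gusb, beta-glucuronidase, by 0.56 ± 0.19 (SE; adjusted p = 0.0361) and Ctsa, another cathepsin, by 2.21 ± 0.54 (SE; adjusted p = 0.00905). Gusb lost its call in 8 of 10 fits without 1 tumour (up to 0.0898), and its other probes differed by 1.84, 1.24 and 0.43. Other probes of Ctsa differed by 1.11, -0.86 and 0.39. Of 57 tested cytosolic ribosomal protein genes 4 rose and 0 fell, and of 72 mitochondrial ones 3 rose and 6 fell, both below the shares over all genes. With 1 tumour left out 1 to 4 of the cytosolic ones rose, and 3 of the mitochondrial ones fell without relapse replicate 4 or 5. Among 30 constitutive proteasome subunits 8 rose, or 26.7%, with Psmd5 the largest (1.72 ± 0.38, adjusted p = 0.00543; detected on 4 of 5 ctrl arrays), and 1 fell. The remaining lists are given with their shares, against 13.5% risen and 19.1% fallen over all genes. Of 16 endoplasmic reticulum chaperones 3 rose (18.75%) and 1 fell (6.25%). Of 19 metallothionein and oxidative stress genes 0 rose and 1 fell (5.26%). Of 16 genes of cholesterol synthesis 0 rose and 2 fell (12.5%), and of 4 Schwann cell and nerve genes 0 rose and 1 fell (25%). With 1 tumour left out 0 to 3 of the chaperones rose and 0 to 2 fell, and 0 to 3 of the metallothionein and oxidative stress genes fell, with 3 without relapse replicate 3. Of 21 immediate early and stress genes 6 rose (28.6%) and 3 fell (14.3%), and 2 rose without relapse replicate 2 or 5. The 1 tested mast cell gene was not called (Gata2, 0.07 ± 0.56, adjusted p = 0.932). Of the 9 mast cell genes with a probe 2 were detected in ctrl and 7 in relapse, each on at least 1 array. Their summed signal was 8.003 to 9.09 in ctrl and 8.28, 10.68, 8.16, 11.02 and 11.20 in relapse replicates 1 to 5, so that replicates 2, 4 and 5 were high.

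Several of the largest changes lay outside these lists. Ly6e, a membrane protein induced by interferon, read 8.37, 9.49, 6.95, 7.59 and 8.69 in ctrl and 13.60, 13.74, 11.63, 13.67 and 13.38 in relapse (4.98 ± 0.50, adjusted p = 8.70e-05). Prkg2, a kinase that responds to cyclic GMP, read 7.18, 6.77, 5.58, 5.87 and 9.89 in ctrl, where 4 of 5 arrays detected it, and 12.53, 12.30, 10.74, 11.99 and 12.19 in relapse (4.89 ± 0.69, adjusted p = 0.000536). Apol9a and Apol9b, near copies of an apolipoprotein L gene, differed by 4.56 ± 0.56 and 4.195 ± 0.62, each detected on 2 of 5 ctrl arrays, with ctrl replicate 5 the highest untreated tumour for both. Sirpb1a, a receptor of myeloid cells, differed by 4.21 ± 0.32 (adjusted p = 3.03e-05; detected on 2 of 5 ctrl arrays), and by 1.67 at its other probe. On the other side, Lncbate10, a long non-coding RNA, read 11.03, 10.55, 11.12, 10.47 and 12.06 in ctrl and 5.16, 4.41, 7.65, 4.89 and 4.44 in relapse, where 2 of 5 arrays detected it (-5.74 ± 0.56, adjusted p = 7.19e-05). Tspan10, a tetraspanin, differed by -5.51 ± 0.97 (adjusted p = 0.00177; detected on 3 of 5 relapse arrays), Syt4, a synaptotagmin of vesicle release, by -5.30 ± 0.86 (adjusted p = 0.00114), and the T-box factor gene Tbx4 by -4.65 ± 0.37 (adjusted p = 3.03e-05; detected on 1 of 5 relapse arrays). Gsta1 and Gsta2, near-identical glutathione transferases that probes may not tell apart, fell by 5.19 ± 0.74 and 4.95 ± 0.74 (SE), and Dnaic1, a dynein chain detected on 3 of 5 relapse arrays, by 5.02 ± 0.73 (SE). In Lncbate10, Tspan10, Gsta1, Gsta2 and Dnaic1, as in the pigment genes, replicate 3 was the highest relapsed tumour.

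The relapsed tumours were not alike, and the lists did not rank them in the same order. For pigment enzymes and antigens, the list medians relative to the ctrl mean were -2.29, -5.95, -1.14, -4.45 and -4.78 in relapse replicates 1 to 5, with the ctrl tumours between -0.04 and 0.20. For matrix genes they were 0.40, 2.32, -1.07, 1.73 and 1.26, and for macrophages 2.18, 2.65, 1.18, 2.995 and 3.10. Replicates 2, 4 and 5 had the lowest pigment medians and the highest matrix and macrophage medians, and replicate 3 had the highest pigment median and the lowest matrix and macrophage medians. Class II genes were high in all 5, at 3.45, 3.79, 2.46, 4.43 and 3.47. Class I genes followed another order, 2.54, 1.84, 2.67, 1.23 and 0.54, with the highest values in replicates 1 and 3. With 5 relapsed tumours no correlation was computed.

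**Figure D5:**
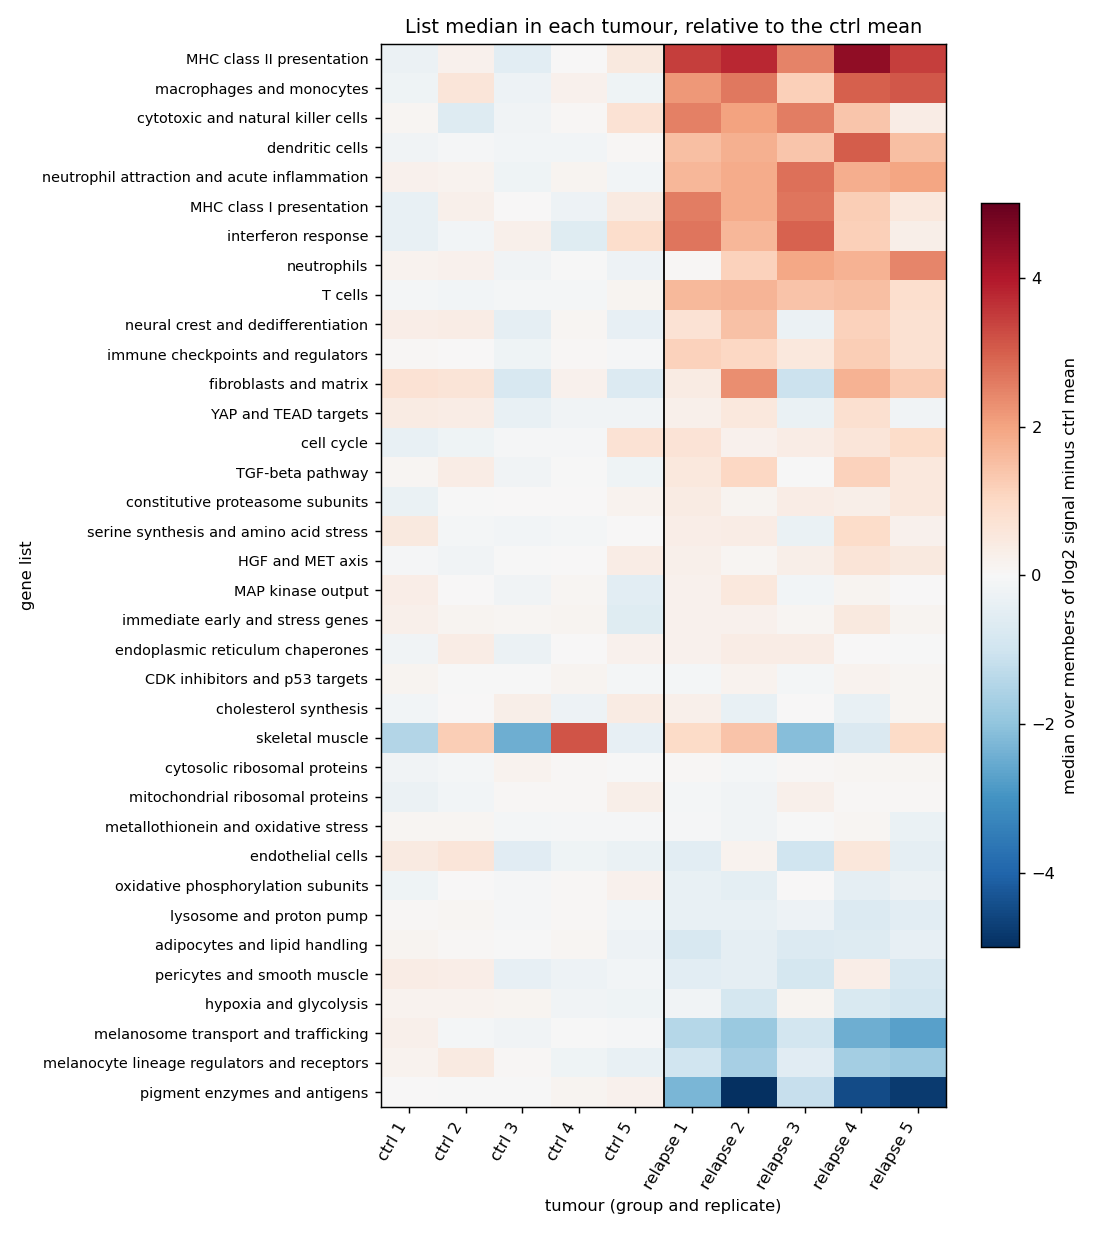
Median over the tested members of each gene list (rows, lists with at least 5 tested members) of the log2 signal minus its ctrl mean, in each of 5 ctrl and 5 relapse tumours (columns); red is above the ctrl mean and blue below, the colours end at 5 in either direction, and the line separates the groups. Class II and macrophage rows are red in all 5 relapsed tumours, pigment rows are palest in replicate 3 (-1.14), and class I and interferon rows are palest in replicate 5 (0.54 and 0.30).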

How the data were processed

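Each of the 10 samples was measured on 1 array. The deposited table holds, per the file headers, an intensity for each probe, the average over its beads, which its values show to be neither background-corrected nor scaled. Beside it the authors deposited a detection p-value, a standard error of the bead intensity and a number of beads, of which only the detection p-value was used. The authors' processed values, deposited on a log2 scale by a method not given in the sources used here, kept each array's rank order, were not centred (array medians 4.66 to 4.79), and served as an alternative.

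Background correction, an offset of 16 and quantile normalization were done by neqc (limma 3.58.1, R 4.3.3), which inferred the negative controls from detection p-values. Of 45281 probes, 15021 had a detection p-value under 0.01 on all 5 ctrl or all 5 relapse arrays. The platform annotation supplied for the arrays gave 1 symbol to 34873 probes, several to 18 and none to 10390, and 13099 of the passing probes had 1. The brightest passing probe stood for each of 8849 genes, 3047 of which had more than 1, and in 37 genes called probes disagreed in direction. Groups were compared with lmFit and eBayes, two-sided, with Benjamini-Hochberg adjustment at 0.05. Values per array were compared by exact permutation, with a smallest possible p of 0.00794. On simulated data 36% of 100 changes of 1 log2 unit and 79% of 100 changes of 2 were recovered, with 6 false calls among 8849 genes. The simulation changed far fewer genes than were called in the data. It also drew genes independently and gave a gene the same spread in both groups, so its rates need not hold here. The number of arrays limits the precision.

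The members and the 41 gene lists were chosen with earlier results of these data known. Named genes were the 15 largest called rises and falls without overlap, up to 4 called members per direction of each list with its brightest member, and genes of known role named whatever they did; Gusb, Ctsa, Cebpb and other called members fall under the list rule. No label calls the replicate numbers a pairing, and the main fit did not use them. Alternatives changed the normalization, background, filter, probe choice, slide, replicate number, array weights and samples. Python 3.11.15 with scipy 1.17.1, pandas 2.3.3 and matplotlib 3.10.9 made the tables and figures.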

Additional observations from a re-analysis of the deposited data

Results flagged for a closer look

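In 38 of 418 groups of 5 tumours checked over the named genes, 1 tumour lay far from the other 4, where chance gives about 1 in 20; 24 of these were in relapse, and 17 of them were replicate 3. All values are normalized log2 signals.

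Relapse replicate 3 was lower than the other relapsed tumours for Ly6e (11.63), Axl (12.07), Tnc (9.15), Havcr2 (6.47), C1qc (11.05), C1qb (12.18), Lyz1 (13.73), Timp1 (11.61), Grn (12.01) and Rps4x (13.59). It was higher than the others for Trpm1 (9.70), Lncbate10 (7.65), Tbx4 (6.04), Cyp4b1 (8.61), Higd1a (6.65), Mrps35 (9.96) and Atp5e (9.46). Relapse replicate 1 was far lower for S100a8 (5.97) and S100a9 (4.65), whose values in the other relapsed tumours were at least 12.65 and 10.73, and higher for Gab1 (10.61). Replicate 2 was high for Sparc (15.17), replicate 4 was high for Igfbp3 (10.42) and low for Scd1 (11.15), and replicate 5 was high for Ccl7 (11.95).

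Among untreated tumours, ctrl replicate 5 stood out most often. It was high for Cxcl9 (10.61), Apol9a (7.94), Apol9b (8.07), Cd3g (4.89), Ccl17 (5.27) and Cd79b (5.94), and low for Tnfrsf9 (8.36) and Plk2 (8.59). Its Cxcl9 lay above that of relapse replicates 4 and 5. Cd3g and Ccl17 were detected on no ctrl array, so their values in this tumour did not pass the detection threshold. Ctrl replicate 3 was low for H2-Aa (6.33), Fn1 (7.27) and Gadd45a (8.42), ctrl replicate 2 was high for Arg1 (10.91) and Gfap (8.29), and ctrl replicate 1 was low for Gusb (11.002).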

How the results depend on the processing

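No called gene turned and was called the other way under any of the 22 alternatives, and 48 of 173 called named genes kept the call in all of them. With single tumours left out, 136 of the 173 kept it throughout. In these fits counts of called genes ran from 2156 (without relapse replicate 5) to 3801 (without relapse replicate 3), against 2891 in the main fit. Array weights gave 3902. Median centring gave 2004 that rose and 666 that fell. Slide 1 alone called 631, of which 350 rose and 281 fell, with 3 tumours against 3. The authors' values gave 1446 and 1335. With the replicate block, 1298 rose and 1816 fell (3114 in all). Samples of the same number correlated by 0.07, 0.26, 0.33, 0.04 and -0.01 for numbers 1 to 5. Only 2 and 3 correlated best with their own number. No label calls the numbers a pairing, and 5 numbers are too few to settle whether there was one. The difference in probes detected per array was 1459.7 on slide 1 (exact p = 0.3) and 1803 on slide 2 (exact p = 0.333), and 1229.7 to 2001.6 with 1 tumour left out. The log2 of the 95th percentile of raw signal was higher in relapse by 0.38 (exact p = 0.0476), by 0.26 on slide 1 (exact p = 0.3), by 0.57 on slide 2 (exact p = 0.333), and by 0.28 to 0.51 with 1 tumour left out.

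Signs turned only for named genes that were not called, given here with the reported difference in brackets. Cd44 (0.0891) was at -0.0308 with the authors' values, -0.39 with the mean of probes, -0.0213 on slide 1 and -0.0448 to 0.18 with 1 tumour left out. Ccn2 (-0.26) was at -0.45 to 0.0105 with 1 tumour left out. Arg1 (0.79) was at -0.14 on slide 1. Gata2 (0.0745) was at -0.11 on slide 2 and -0.19 to 0.58 with 1 tumour left out. Pmp22 (-0.17) was at 0.0723 with centring, 0.34 with the mean of probes and -0.33 to 0.00312 with 1 tumour left out. Myl1 (0.29) was at -0.80 on slide 2 and -0.32 to 1.12 with 1 tumour left out. Cdkn2a (-0.0796) was at 0.0822 with centring, 0.62 with the mean of probes, 0.35 on slide 2 and -0.20 to 0.0887 with 1 tumour left out. Hsp90b1 (0.11) was at -0.0200 with the authors' values and -0.0943 on slide 2. Hspa8 (-0.0408) was at 0.0784 with centring, 0.58 with the mean of probes, 0.0236 on slide 2 and -0.14 to 0.0269 with 1 tumour left out. Fth1 (-0.0341) was at 0.00637 with centring, 0.0319 on slide 2 and -0.0701 to 0.0255 with 1 tumour left out. Rplp1 (0.0896) was at -0.21 with the authors' values. Atp5b (-0.0274) was at 0.0281 with centring, 0.12 on slide 2 and -0.0741 to 0.0346 with 1 tumour left out. Ngfr (1.32) was at -0.0385 on slide 2. Of these, Hspa8 alone passed in the turned direction, with the mean of probes (limma adjusted p = 0.0336). The cause was not tested in any of these.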
